A study of Mus musculus with 8 samples.

Results

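Cx3cl1 encodes fractalkine, a chemokine that is made as a membrane protein with its chemokine domain held out from the cell on a mucin-like stalk. It was read from its single row among the 1428 genes of a deposited RNA sequencing table of mouse colon tumours. The gene was selected for description because of that table's KO against WT contrast: every listed gene has an unadjusted p below 0.05 there, and Cx3cl1 ranked 9 by p. Its difference between the groups is therefore given below as a description with no test. Patterns within the groups, which that selection used only through the spread between libraries, were examined separately.

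Fractalkine attached to a membrane binds cells that carry its receptor CX3CR1, such as monocytes, macrophages, cytotoxic T cells and natural killer cells. Proteases of the ADAM family cut the stalk and release a soluble form that attracts the same cells. Endothelium, neurons and intestinal epithelium are known sources, and inflammatory signals such as tumour necrosis factor, interleukin 1 and interferon gamma are known to raise its expression. The listing of Cx3cl1 here is from bulk tissue, so its cell source was not measured.

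The control group (WT) held 4 libraries of colon tumours from C57BL/6N mice labelled Wildtype. The other group (KO) held 4 libraries of colon tumours from C57BL/6N mice labelled miR-29ab1Vilin-KO, in which the miR-29ab1 locus was disrupted in the intestinal epithelium alone, under a label that names villin. Villin is a protein of the epithelial brush border, and its promoter is a common driver of gene deletion in gut epithelium. Tumours in the mice with the disrupted locus were induced by giving azoxymethane (a carcinogen of the colon) together with dextran sodium sulfate, an irritant of the gut lining. Whether the WT mice received the same agents is not spelled out for each sample. Age, sex, Cre status of the WT mice, pooling and the separateness of animals are not given in the labels. Every p-value thus reflects spread among libraries, part of which could be technical. Immune, endothelial and stromal cells of the tumours keep the miR-29ab1 locus under this design.

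The disrupted locus encodes miR-29a and miR-29b, small RNAs that repress transcripts carrying a match to their seed. The 2 mature sequences are shown because they are products of the locus that the KO label names. The label does not say whether other loci still supply them. They share 1 seed, bases 2 to 8, printed in capitals. They come from RefSeq on GRCm38.p6, chromosome 6, minus strand: miR-29a-3p at chr6:31062673-31062694 and miR-29b-3p at chr6:31063025-31063047.
mmu-miR-29a-3p: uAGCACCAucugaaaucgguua
mmu-miR-29b-3p: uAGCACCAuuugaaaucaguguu
Neither Mir29a nor Mir29b-1 was among the 1428 listed genes, and mature microRNAs were not measured, so the deletion itself could not be checked in these libraries.

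The longest annotated 3′ UTR of Cx3cl1 in GENCODE M21 has 1871 bases. It held 0 matches to TGGTGCT, the 7-letter complement of the seed, searched on the transcript strand. Among 1454 genes with a 3′ UTR within 10% of that length, 15.3% held such a match. The shorter string GGTGCT, which lies inside the longer one, occurred 1 time, starting at base 470 of the UTR, and 39.1% of the same 1454 UTRs held it. The site is printed with its flanks because it is the nearest letter match found in this UTR to the microRNAs of the disrupted locus. The 6 letters that were searched are in capitals. The a that follows them also complements the first base, u, of both microRNAs. That longer match was not counted in the other UTRs.
Cx3cl1 3′ UTR site: ccggccagctgcGGTGCTatctgccctatg
A letter match is a description and does not show that the site is used.

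In the deposited table Cx3cl1 is a protein-coding gene (MGP_C57BL6NJ_G0034464) on the plus strand of chromosome 8, from 99711181 to 99723243 in the table's own coordinates. Those coordinates go with identifiers of the C57BL/6NJ annotation. The values are normalized counts, meaning reads assigned to a gene divided by a factor for the size of the library. In the WT tumours Cx3cl1 measured 692, 953, 1025 and 776 normalized counts in replicates 1 to 4. The KO tumours gave 1517, 1615, 1421 and 2204 in replicates 1 to 4. The groups did not overlap: the lowest KO library, replicate 3, was 1.39 times the highest WT library, replicate 3.

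**Figure D1:**
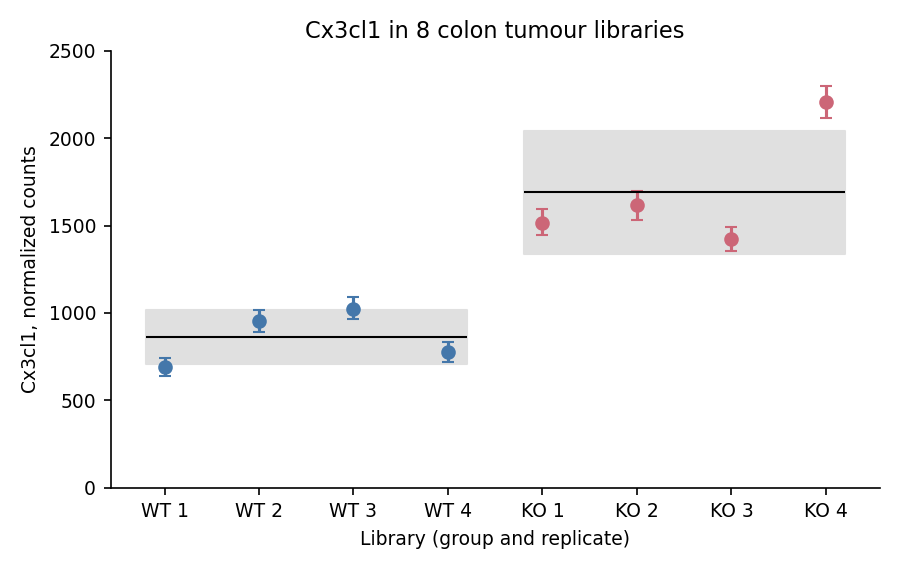
Normalized counts of Cx3cl1 (vertical axis, from 0) in each of the 8 libraries (horizontal axis), with exact 95% Poisson intervals as bars, the group mean as a line and 1 SD on each side as a grey band. The WT libraries lie between 692 and 1025 and the KO libraries between 1421 and 2204, with KO replicate 4 above the other 3.

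The WT mean was 862 ± 154 (SD, n = 4) and the KO mean was 1689 ± 352 (SD, n = 4), a ratio of 1.96. Without KO replicate 4 the KO mean was 1518 and the ratio 1.76. That library was the highest and the groups did not overlap, so leaving it out could not change the direction or the gap between the groups. In the authors' deposited table the log2 fold change was 0.97, with an unadjusted p of 2.33e-05 and an adjusted p of 0.0507. A DESeq2 refit of the listed genes gave that fold change a standard error of 0.22.

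The adjusted p places Cx3cl1 at the edge of the usual limit. The authors' deposited table holds 8 genes that had an adjusted p below 0.05 and 23 below 0.1. The gene just before Cx3cl1, the immunoglobulin constant region gene Ighg2b, had an adjusted p of 0.0461 in the authors' deposited table. The gene just after it, Nt5e, which encodes the ectonucleotidase CD73, had the same adjusted p as Cx3cl1, 0.0507, in the authors' deposited table. Of the 19985 genes that the adjusted p-values imply the authors tested, 7.06% had an unadjusted p below 0.05, 4.09% higher in KO and 2.97% lower. Among the 1428 listed genes, 342 (23.9%) had all 4 KO libraries above all 4 WT libraries, as Cx3cl1 did, and because the list was chosen on the same contrast nothing is read from that share.

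Counting error was small beside the spread between libraries. Cx3cl1 was covered by 711 to 2253 reads per library, for a counting coefficient of variation of 2.11% to 3.75%. The coefficient of variation between libraries was 17.9% in WT and 20.9% in KO. These are close to the medians of 19.8% and 21.7% over the 923 listed genes with a mean of at least 50 normalized counts, so Cx3cl1 varied about as much within each group as an ordinary listed gene.

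In order of level the libraries ran WT replicate 1, WT 4, WT 2, WT 3, KO 3, KO 1, KO 2 and KO 4. The exact Poisson interval of WT 1, 642 to 744, overlapped that of WT 4, 722 to 833. The intervals of WT 2 (893 to 1017) and WT 3 (963 to 1091) also overlapped, as did KO 3 (1352 to 1492) with KO 1 (1443 to 1594) and KO 1 with KO 2 (1534 to 1699). KO 4, at 2114 to 2297, overlapped no other library. These intervals cover counting error only.

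Per kilobase of the listed gene length, 5356 bases, Cx3cl1 stood at 161 ± 28.8 normalized counts in WT and 315 ± 65.8 in KO (SD, n = 4 each). Its mean over all 8 libraries was above that of 81.3% of the listed genes, and above 74.8% of them per kilobase. Cx3cl1 was thus one of the more abundant transcripts of this list.

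KO replicate 4 stood apart from the other KO libraries across the list and not for Cx3cl1 alone. In 622 of the 829 genes listed higher in KO (75.0%) it held the top KO value, and its value for Cx3cl1 was 1.45 times the mean of the other 3 KO libraries. Reads over the listed genes ranged from 1202677 to 1533770 in 7 libraries and reached 2180787 in KO replicate 4. These totals cover listed genes only and are not the library depth. The likeness counts are given below with and without it, as are the ratios of many, though not all, of the genes described.

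To find listed genes that varied with Cx3cl1 among tumours of one genotype, log2(normalized count + 1) was centred on each group mean and correlated over the 8 libraries. Genes needed a mean of at least 50 normalized counts, which left 922 besides Cx3cl1. A gene was called alike when r was at least 0.8 with all libraries and without each library in turn, and opposite when r was at most -0.8 in the same way. This gave 54 alike genes (5.86%) and 11 opposite genes (1.19%). With all 8 libraries alone, 142 genes reached 0.8 and 31 reached -0.8. The 8 points share libraries, so each r is a description: the exact permutation test within groups (two-sided) left 198 genes with an unadjusted p below 0.05 and 0 with a Benjamini-Hochberg adjusted p below 0.05. The smallest adjusted p in that exact permutation test was 0.146 for Pearson's r and 0.192 for Spearman's rho.

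All 54 alike genes were listed higher in KO, and the authors' deposited table gave them a median log2 fold change of 0.88. Among the opposite genes 10 were listed lower and 1, Asah2, higher. Of all 922 compared genes, 59.7% were listed higher. KO replicate 4, the library highest for Cx3cl1, was also the highest KO library for all 54 alike genes and the lowest KO library for all 11 opposite genes. The group difference and the within-group pattern therefore share this library. Its value also enters the contrast that chose the list, so nothing is read from the directions of the alike and opposite genes. The r of the alike genes without KO replicate 4 ranged from 0.80 to 0.96 with a median of 0.87, against 0.85 to 0.98 with a median of 0.92 over all libraries.

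**Figure D2:**
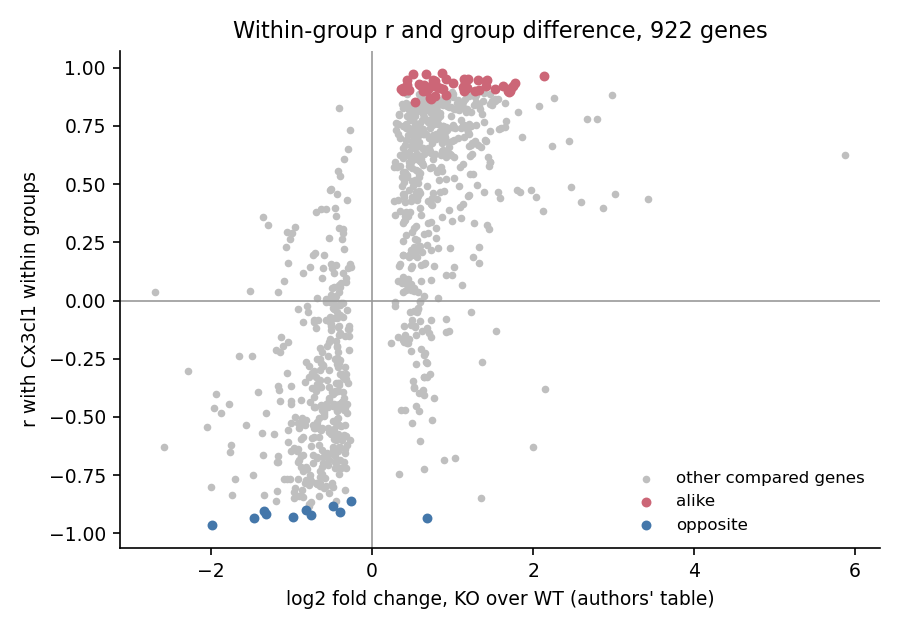
Pearson's r with Cx3cl1 within groups over 8 libraries (vertical axis) against the log2 fold change of KO over WT in the authors' deposited table (horizontal axis) for 922 listed genes, 1 point each. The 54 alike genes lie at the top and all to the right of 0, and 10 of the 11 opposite genes lie at the bottom left.

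The number of alike genes depended on which libraries were used. Repeating the whole rule without KO replicate 4 gave 31 alike genes, of which 23 were among the 54, and 5 opposite genes, of which 4 were among the 11. Without WT replicate 1, the lowest library for Cx3cl1, the rule gave 132 alike and 25 opposite genes. The 2 libraries farthest from the median of the centred Cx3cl1 values were KO replicate 4 and WT replicate 3. Without them r stayed past 0.8 in 27 of the 54 alike genes and past -0.8 in 7 of the 11 opposite genes. The r over the 6 remaining libraries ranged from 0.66 to 0.99 in the 54 alike genes and from -0.97 to -0.71 in the 11 opposite genes.

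The gene most like Cx3cl1 was Gcnt1, which encodes a glycosyltransferase that forms the core 2 branch of O-linked glycans on mucin-type proteins. Its WT values were 406, 680, 876 and 413 normalized counts in replicates 1 to 4, and its KO values were 849, 879, 615 and 1999. As for Cx3cl1, WT replicates 2 and 3 lay above replicates 1 and 4, and KO replicate 4 was highest, but the groups overlapped. Within groups r was 0.98 (unadjusted exact permutation p = 0.00174, the smallest these rearrangements can give, adjusted p = 0.146). The group ratio of Gcnt1 was 1.83, and 1.32 without KO replicate 4.

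Bola3, a mitochondrial factor for iron-sulfur cluster assembly, measured 135, 200, 215 and 179 in WT and 260, 282, 233 and 382 in KO. Its groups did not overlap, its ratio was 1.58, or 1.42 without KO replicate 4, and its r with Cx3cl1 was 0.97. Atrnl1, which encodes an attractin-like membrane protein, measured 959, 1337, 1367 and 973 in WT and 1420, 1454, 1400 and 2301 in KO. Its lowest KO library lay just above its highest WT library, with an r of 0.97 and a ratio of 1.42, or 1.23 without KO replicate 4. Snph, which encodes syntaphilin, an anchor of axonal mitochondria, measured 32.1, 41.1, 48.5 and 33.4 in WT and 73.3, 78.2, 57.8 and 133 in KO. Snph thus had the groups apart as Cx3cl1 did, with an r of 0.95 and a ratio of 2.21, or 1.80 without KO replicate 4. The r of Gcnt1, Bola3, Atrnl1 and Snph without that library was 0.92 to 0.95.

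The other 3 leading alike genes reported here changed far more in KO replicate 4 than Cx3cl1 did. Slc5a8, a sodium-coupled transporter of butyrate and other monocarboxylates in colonic epithelium, measured 384, 1201, 915 and 474 in WT and 791, 1024, 632 and 5490 in KO. Sult1d1, a sulfotransferase, measured 207, 518, 638 and 260 in WT and 293, 588, 311 and 3172 in KO. For both genes the 3 other KO libraries lay inside the WT range. The ratio of Slc5a8 was 2.67 over all libraries and 1.10 without KO replicate 4, and that of Sult1d1 was 2.69 and 0.98. Ahcyl2, a homologue of adenosylhomocysteinase, had ratios of 2.01 and 1.25. The r values of these 3 genes with Cx3cl1, from 0.93 to 0.94, remained between 0.93 and 0.96 without that library.

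**Figure D3:**
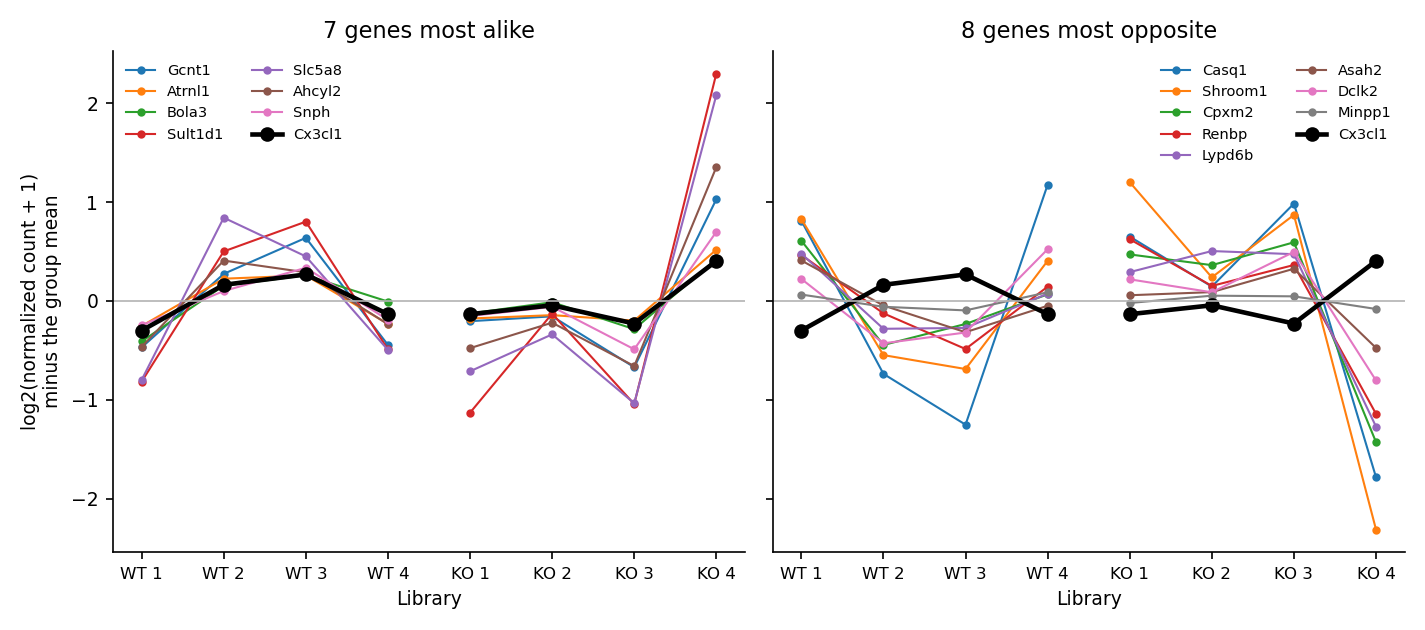
Log2(normalized count + 1) minus the group mean (vertical axis) by library (horizontal axis) for Cx3cl1 (black) and 7 of the most alike (left) or 8 of the most opposite (right) named genes. Cx3cl1 was above its group mean in WT replicates 2 and 3 and KO replicate 4, and the opposite genes had their lowest KO value in KO replicate 4.

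The most opposite gene was Casq1, the calcium-binding calsequestrin of skeletal muscle. It measured 134, 45.2, 31.3 and 173 in WT and 30.9, 21.4, 39.1 and 4.89 in KO. Its highest values were in WT replicates 1 and 4, where Cx3cl1 was lowest, with an r of -0.96. Shroom1, a regulator of the actin and microtubule cytoskeleton, followed with an r of -0.93 and values of 236, 90.4, 81.9 and 176 in WT and 88.7, 45.0, 70.3 and 6.85 in KO. Both genes overlapped between the groups.

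Cpxm2, a member of the metallocarboxypeptidase family, was apart between the groups at 295 to 614 in WT and 53.8 to 222 in KO, with an r of -0.92. Lypd6b, a member of the Ly6 family, ranged from 140 to 237 in WT and from 36.2 to 126 in KO, with an r of -0.90. Renbp, the renin-binding protein, had an r of -0.93 and the doublecortin-like kinase Dclk2 one of -0.92. Minpp1, an inositol polyphosphate phosphatase, varied little, from 1862 to 2114 in WT and from 1571 to 1725 in KO, with an r of -0.86. Asah2, the neutral ceramidase of the intestinal brush border, was the opposite gene that was higher in KO. It measured 106, 77.1, 63.7 and 76.9 in WT and 132, 135, 159 and 91.0 in KO, so KO replicate 4 lay inside the WT range while its r with Cx3cl1 was -0.93. Without KO replicate 4 the r of these 8 opposite genes ranged from -0.93 to -0.84.

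Scaling to other size factors altered these counts. TMM and median-ratio factors computed over the listed genes lowered the median log2 ratio of all listed genes by 0.16 and 0.17, and no listed gene changed direction. Under them the log2 ratio of Cx3cl1 was 0.80 and 0.79 in place of 0.97, a fall of the same size as that median. Of the 54 alike genes 28 were still alike with TMM factors and 12 with median-ratio factors. Of the 11 opposite genes 11 and 3 were still opposite. The 15 genes named for their likeness kept the sign of r under both, with sizes of at least 0.86 and 0.79.

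Genes of the fractalkine pathway and the wider chemokine system were read from lists of 107 genes in 5 groups. Of these, 11 were among the listed genes, 3 higher and 8 lower in KO, and 0 had an adjusted p below 0.05 in the authors' deposited table. That is 10.3% of the lists beside the 7.06% of all tested genes, and the table gives no value for an unlisted gene. An edgeR refit with the deposited size factors gave an unadjusted p below 0.05 in the same direction to 2 of the 3 higher genes. It gave such a p to 4 of the 8 lower genes. A DESeq2 refit gave such a p to all 11. The genes were listed by a DESeq2 p on the same reads, so this is not separate support. Without KO replicate 4 the edgeR refit gave such a p to 1 higher gene, Itga4, and to 4 lower genes, Ccl24, Ccl11, Rhbdf2 and Il1b. With all libraries the 4 lower genes were Ccl24, Ccl4, Ccl17 and Rhbdf2.

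The receptor gene Cx3cr1 and the sheddase genes Adam10 and Adam17 were not among the listed genes. Of the 12 partners, 2 were listed (16.7%, beside 7.06% of all tested genes). Rhbdf2, which encodes iRhom2, a rhomboid-like protein needed for maturation of the ADAM17 sheddase, measured 1308, 1197, 1211 and 1495 in WT and 1052, 1112, 981 and 785 in KO. Its groups did not overlap, with a mean of 1303 ± 137 in WT and 982 ± 142 in KO (SD, n = 4 each). The ratio was 0.75, or 0.80 without KO replicate 4. The authors' deposited table gives it a log2 fold change of -0.41, with an unadjusted p of 0.0263 and an adjusted p of 0.666. Rhbdf2 thus lay on the lower side of the table while Cx3cl1 lay on the higher side.

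Itga4, the alpha 4 integrin chain of leukocytes, measured 73.9, 60.6, 46.5 and 31.4 in WT and 81.0, 122, 99.7 and 120 in KO. The groups did not overlap and the ratio was 1.99, or 1.90 without KO replicate 4. In the authors' deposited table its unadjusted p was 0.003 and its adjusted p 0.413. Its r with Cx3cl1 within groups was 0.11, and -0.07 without KO replicate 4.

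Among 37 other chemokine ligands 7 were listed (18.9%, beside 7.06% of all tested genes), 1 higher and 6 lower. The median log2 fold change over the 7 was -1.46. The median says nothing of the 30 unlisted ligands. Of the 6 lower ligands, Ccl3, Ccl12 and Ccl17 had groups that did not overlap and Ccl4, Ccl11 and Ccl24 had groups that did. All 6 were scarce, with WT means from 13.0 to 49.7 normalized counts.

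Ccl17, a ligand of CCR4 on T cells, lies next to Cx3cl1 on the chromosome and measured 21.4, 10.3, 12.1 and 8.09 in WT and 7.71, 4.29, 1.78 and 3.91 in KO. Its highest KO library lay just below its lowest WT library, and the ratio of 0.34 was 0.35 without KO replicate 4. Ccl3, an inflammatory chemokine, measured 22.4, 24.7, 43.5 and 20.2 in WT and 18.3, 11.8, 17.8 and 6.85 in KO. Ccl12, a monocyte attractant, measured 17.5, 40.1, 20.2 and 19.2 in WT and 12.5, 11.8, 15.1 and 1.96 in KO. In both, KO replicate 4 was the lowest library of all 8, the reverse of its place for Cx3cl1.

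Ccl4, another inflammatory chemokine, measured 15.6, 30.8, 31.3 and 37.4 in WT and 8.68, 23.6, 2.67 and 3.91 in KO. Ccl11, which attracts eosinophils, measured 32.1, 41.1, 53.6 and 71.8 in WT and 9.64, 33.2, 26.7 and 2.94 in KO. Ccl24, which acts on the same eosinophil receptor, measured 15.6, 41.1, 31.3 and 33.4 in WT and 16.4, 4.29, 16.0 and 2.94 in KO. For these 3 ligands at least 1 KO library reached the WT range, and their ratios ran from 0.33 to 0.36, or from 0.40 to 0.47 without KO replicate 4.

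Cxcl13, which attracts B cells to lymphoid follicles, was the ligand listed higher beside Cx3cl1. It measured 41.8, 68.8, 69.8 and 28.3 in WT and 29.9, 161, 55.2 and 300 in KO, and 2 KO libraries lay within the WT range. Its ratio of 2.62 was 1.57 without KO replicate 4. Its receptor gene Cxcr5 was the 1 listed of 22 chemokine receptors (4.55%, beside 7.06% of all tested genes). Cxcr5 measured 4.86, 0, 6.07 and 3.04 in WT and 3.86, 34.3, 5.34 and 126 in KO. Its ratio was 12.2, or 4.15 without KO replicate 4. KO replicates 2 and 4 were the high libraries of both genes, whereas all 4 KO libraries were high for Cx3cl1.

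**Figure D4:**
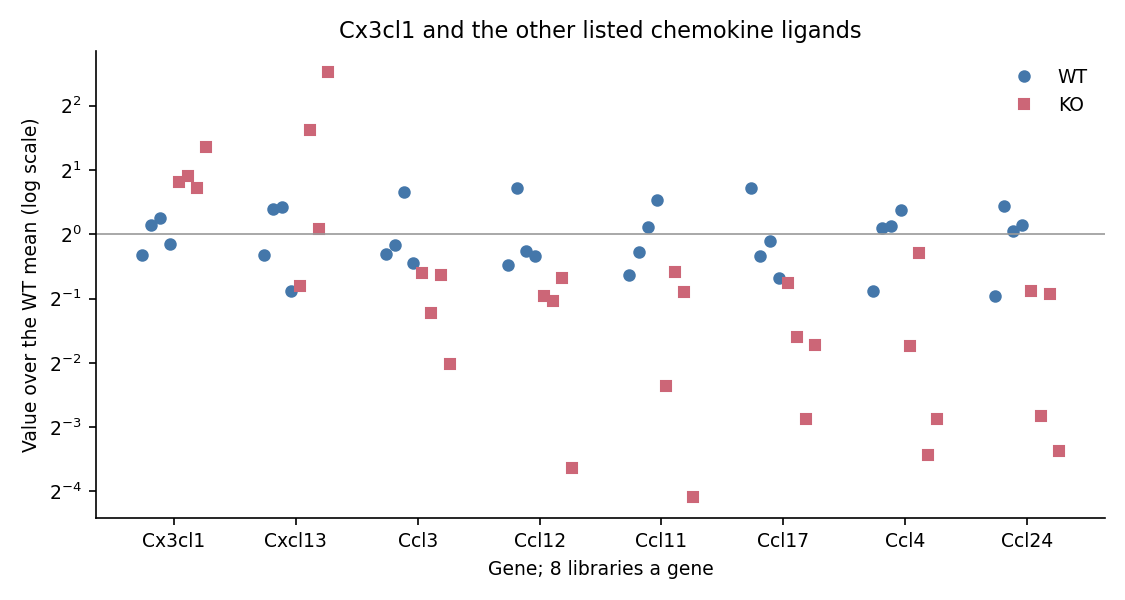
Value in each library divided by the WT mean of the gene (vertical axis, log scale) for Cx3cl1 and the 7 other listed chemokine ligands (horizontal axis), WT as circles and KO as squares, replicates 1 to 4 from left to right within each group. Cx3cl1 and Cxcl13 are the listed ligands above 1 in KO on average, and the other 6 are below it.

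Of 20 inducers of Cx3cl1 and their signalling genes, 1 was listed, beside 7.06% of all tested genes. Il1b, the cytokine interleukin 1 beta, measured 1192, 1038, 1296 and 1105 in WT and 707, 742, 550 and 67.5 in KO. The groups did not overlap, with a ratio of 0.45, or 0.58 without KO replicate 4. In the authors' deposited table its unadjusted p was 0.0337 and its adjusted p 0.689. Its r with Cx3cl1 was -0.67 over all libraries and 0.28 without KO replicate 4. Of 16 epithelial surface adhesion molecules and membrane mucins 0 were listed, beside 7.06% of all tested genes, and nothing is read from so short a list.

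The chromosome around Cx3cl1 held other listed genes. Within 1000 kb on each side, 6 genes were listed, Cx3cl1 included, and they spanned 230 kb. In RefSeq order 9 protein-coding genes lie from the first to the last of them, of which 66.7% were listed, against 60 of 1043 (5.75%) protein-coding genes of the chromosome. The ends of this stretch were set by listed genes, so the share is a description. The unlisted genes of the stretch were Ccl22, Ciapin1 and Polr2c.

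Starting from Cx3cl1, Ccl17 began 36.9 kb downstream and was lower in KO, as given above. Coq9, a gene of coenzyme Q synthesis, began 71.8 kb downstream and measured 591, 779, 1018 and 879 in WT and 1119, 1250, 1059 and 1641 in KO. Its groups did not overlap, and its ratio was 1.55, or 1.40 without KO replicate 4. Its r with Cx3cl1 was 0.87, or 0.78 without that library. Dok4, an adaptor protein of receptor tyrosine kinases, measured 1802, 1713, 2083 and 2087 in WT and 2486, 2784, 2231 and 3911 in KO. These groups did not overlap either, with a ratio of 1.48, or 1.30 without KO replicate 4. The r of Dok4 with Cx3cl1 was 0.71, or 0.28 without that library.

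Upstream, Pllp, which encodes plasmolipin, a membrane protein of epithelia and myelin, measured 1568, 1653, 1621 and 1575 in WT and 2147, 2020, 1931 and 2574 in KO. Its WT libraries lay within a narrow band and all KO libraries above it, with a ratio of 1.35, or 1.27 without KO replicate 4. The r of Pllp with Cx3cl1 was 0.79, or 0.52 without that library. Arl2bp, which encodes a binding partner of the small GTPase ARL2, was the neighbour besides Ccl17 that was lower in KO. It measured 3149, 3230, 2468 and 2857 in WT and 2268, 2620, 2240 and 1897 in KO, with overlapping groups and a ratio of 0.77, or 0.81 without KO replicate 4. The r of Arl2bp with Cx3cl1 was -0.60, or -0.29 without that library. The smallest adjusted p of these 5 neighbours in the authors' deposited table was 0.450, for Pllp.

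**Figure D5:**
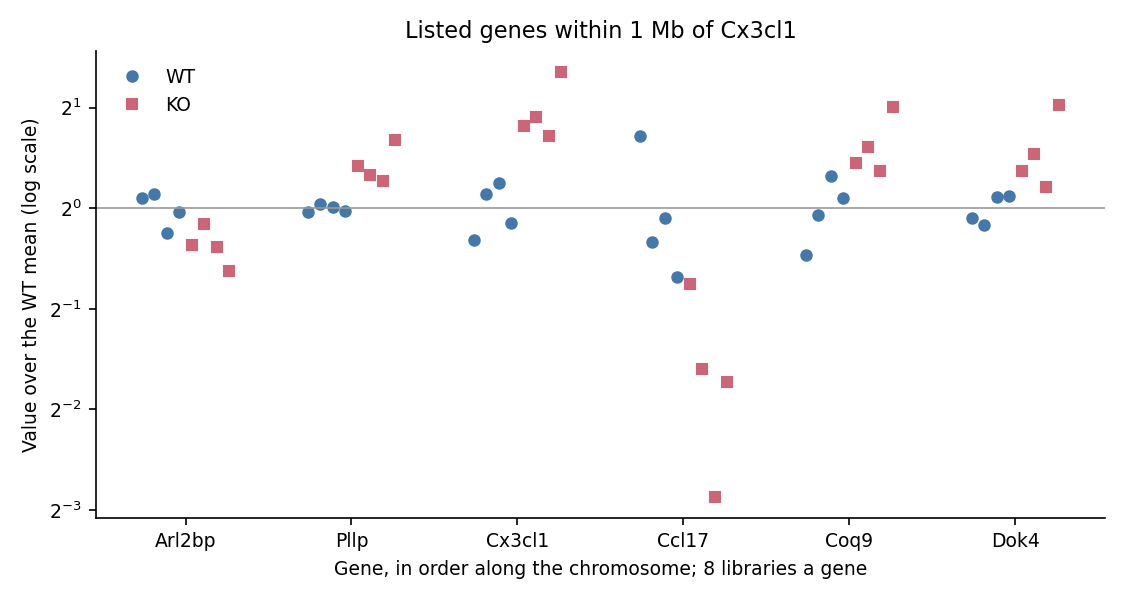
Value in each library divided by the WT mean of the gene (vertical axis, log scale) for the 6 listed genes within 1000 kb of Cx3cl1, in chromosome order (horizontal axis), WT as circles and KO as squares, replicates 1 to 4 from left to right. Pllp, Cx3cl1, Coq9 and Dok4 had all KO libraries above all WT libraries, and Ccl17 had all of them below.

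In bulk tumours, fewer cells of a type and less RNA per cell cannot be told apart, and markers of several cell types moved with the groups. Markers of colonocytes, an epithelial source of fractalkine, were listed higher for 6 of 20, beside 4.09% of all tested genes. Their summed level ranged from 18823 to 23967 in WT and from 24806 to 79762 in KO, where the top value was KO replicate 4 and the next 29269. Cdhr5, a brush border protocadherin, measured 6191, 6827, 6288 and 5470 in WT and 7846, 8335, 7873 and 18826 in KO. Its r with Cx3cl1 was 0.77, or 0.54 without KO replicate 4. Hnf4g, a transcription factor of enterocytes, measured 104, 119, 161 and 76.9 in WT and 169, 175, 167 and 513 in KO, with groups that did not overlap and an r of 0.87, or 0.73 without KO replicate 4. Mep1a, a brush border metalloprotease, was among the 54 alike genes, at 251, 662, 679 and 204 in WT and 573, 837, 294 and 4431 in KO. Its r was 0.94, and its ratio of 3.42 was 1.26 without KO replicate 4. Goblet cell markers had 0 of 8 listed, beside 7.06% of all tested genes, and nothing is read from so short a list.

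Markers of endothelium, another known source, had 1 of 12 listed (8.33%), near the 7.06% of all tested genes. The listed gene was Lyve1, of lymphatic vessels, at 23.6 to 50.6 in WT and 31.1 to 159 in KO. Its r with Cx3cl1 was 0.07. Neuronal and glial markers had 1 of 11 listed (9.09%), also near that 7.06%. This was Chat, which tuft cells also express, at 0 in all WT libraries and at 1.93, 10.7, 0.89 and 39.1 in KO. Endocrine and tuft cell markers, Chat included, were listed higher for 5 of 12, beside 4.09% of all tested genes. Their summed level was 287 to 542 in WT and 370 to 2884 in KO, where the top value was KO replicate 4 and the next 799. Neurod1, a factor of endocrine cells, reached 91.0 in KO replicate 4 and at most 16.1 in the other 7 libraries. Stem and dividing cell markers were listed lower for 3 of 12 (Ascl2, Birc5 and Top2a), beside 2.97% of all tested genes, with a summed level of 5958 to 8050 in WT and 4412 to 6372 in KO.

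Among cells that respond to fractalkine, T and natural killer cell markers had 4 of 18 listed, 3 higher and 1 lower, beside 7.06% of all tested genes in either direction, with a summed level of 83.7 to 101 in WT and 139 to 166 in KO. Cd4, the T helper coreceptor, measured 14.6, 18.5, 26.3 and 19.2 in WT and 40.5, 36.4, 32.0 and 88.1 in KO, with groups that did not overlap and a ratio of 2.51, or 1.85 without KO replicate 4. Trbc1, a T cell receptor constant region, ranged from 44.5 to 59.6 in WT and from 60.7 to 107 in KO. Cd8b1, of cytotoxic T cells, was near 0 throughout, at 0 to 1.01 in WT and 0 to 10.8 in KO. The lower member was Eomes, a transcription factor of cytotoxic T and natural killer cells, at 25.4 ± 3.40 in WT and 12.9 ± 6.81 in KO (SD, n = 4 each). Macrophage, monocyte and dendritic cell markers had 1 of 15 listed (6.67%), near the 7.06% of all tested genes. This was Fscn1, lower in KO at 98.8 to 646 against 551 to 1348 in WT.

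B and plasma cell markers were listed higher for 11 of 14, beside 4.09% of all tested genes. Their summed level was 139 to 318 in WT and 256 to 3488 in KO, where the top value was KO replicate 4 and the next 1067. Cd79a, a part of the B cell receptor, measured 23.3, 12.3, 13.1 and 33.4 in WT and 33.7, 139, 49.8 and 380 in KO. Its r with Cx3cl1 was 0.40, or -0.33 without KO replicate 4. For Cd22, the marker of this list with the smallest p, r was 0.78, or 0.47 without that library, and for Pou2af1 it was 0.47, or 0.07. The listed members went both ways without KO replicate 4, with an r of 0.32 for Ighm and -0.57 for Cd79b. Mast cell and granulocyte markers were listed lower for 3 of 11, beside 2.97% of all tested genes, at a sum of 86.0 to 2191 in WT and 11.7 to 449 in KO. Fibroblast and smooth muscle markers were listed higher for 3 of 14, beside 4.09%, at a sum of 68.8 to 131 in WT and 144 to 213 in KO. Of 12 genes tied to handling stress and RNA quality 3 were listed, beside 7.06% of all tested genes: Fos and Fosb higher, and Dusp1 lower at 777 ± 63.7 in WT and 598 ± 88.1 in KO (SD, n = 4 each). Their summed level was 2421 to 3196 in WT and 3079 to 4581 in KO. Fosb, an immediate early gene, measured 86.6, 101, 121 and 68.8 in WT and 389, 170, 346 and 195 in KO, with an adjusted p of 0.0447 in the authors' deposited table. Fosb was highest in KO replicates 1 and 3, where Cx3cl1 was not. Its r with Cx3cl1 was -0.13, or 0.23 without KO replicate 4. Fos measured 2050, 2252, 1738 and 1597 in WT and 3512, 2308, 2909 and 3555 in KO, so it was highest in KO replicate 4, as Cx3cl1 was. The r of Fos was 0.24, or -0.09 without that library, and the r of Dusp1 was -0.31, or 0.69 without it. The part that these markers and stress genes have in the Cx3cl1 difference was not tested.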

How the data were processed

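RNA of mouse colon tumours was sequenced from 4 WT and 4 KO libraries, made from TRIzol-extracted total RNA with the NEBNext Ultra Directional kit per the labels' protocols. Tools named in the submitters' processing notes, without versions, are HISAT2 and DESeq2. The notes also name GRCh38, which is a human build, although the gene identifiers are of the mouse C57BL/6NJ annotation. Coordinates are therefore the table's own. No source used here says whether reads were counted by strand.

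The authors deposited a table of 1428 genes with a signal per library (normalized counts, that is read counts over size factors), a log2 fold change, p-values and adjusted p-values. All deposited p-values were below 0.05, so unlisted genes have no value here. Dividing out size factors of 0.933 to 1.12 turned 100% of the deposited values into whole reads within 0.001. The number of genes tested, 19985, was implied by the deposited p-values and adjusted p-values. It leaves out 18 listed genes whose adjusted p is 1.

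Computed here were group means, SDs and ratios, exact 95% Poisson intervals, and within-group correlations of log2(normalized count + 1) with an exact two-sided permutation test within groups and Benjamini-Hochberg adjustment over 922 genes (Python 3.11.15, numpy 2.4.6, scipy 1.17.1, pandas 2.3.3, matplotlib 3.10.9). Refits of recovered reads with edgeR 4.0.16 (quasi-likelihood) and DESeq2 1.42.0 in R 4.3.3 were alternatives, as their spread comes from selected genes. Of these refits, only edgeR with the deposited size factors and no replicate block was tested on simulated data, as was the likeness step. Adjusted p-values quoted from the authors' table are DESeq2's. Symbols were matched exactly or by an unambiguous RefSeq synonym. The genes and lists were chosen with earlier results of these data known.

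Named genes are Cx3cl1, the 8 most alike and 8 most opposite by the smallest r over leaving out each library (skipping predicted and unnamed gene models), listed members of the 5 pathway lists, up to 3 markers per cell type list by p, and listed genes within 1000 kb. Ighg2b and Nt5e, beside Cx3cl1 in rank, and Eomes were added after their values were seen, as were members that fill a count. One of the most alike genes is not reported here. The labels do not say whether replicate numbers pair the libraries, so the numbers were used for pairing only in the replicate block. Alternatives covered scaling, pseudocount, filter, rank correlation, refits, the replicate block and leaving out each library.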

Additional observations from a re-analysis of the deposited data

Results flagged for a closer look

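Single libraries stood far from the other 3 of their group in 12 of the 112 groups of 4 with any spread over the 57 named genes. The measure was the gap to the nearest library over the whole range of the group. For unrelated groups of normal values, chance flags about 1 group in 20. Here the groups share libraries, and genes named as alike or opposite to Cx3cl1 had KO replicate 4 at an end of their KO values. Some groups also held values of only a few reads. That rate therefore gives no expected number of flags here, and the flags are a description. Cx3cl1 itself was not among the flagged genes.

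KO replicate 4 was the far library in 9 of the 12. It was high for the alike genes Atrnl1 (2301 normalized counts), Sult1d1 (3172), Slc5a8 (5490) and Ahcyl2 (8536). It was also high for the epithelial markers Hnf4g (513), Cdhr5 (18826) and Mep1a (4431), the endocrine factor Neurod1 (91.0) and the T cell gene Cd4 (88.1).

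In the WT group, replicate 2 was high for Ccl12 at 40.1 normalized counts. WT replicate 4 was high for Cd8b1 at 1.01, a single read, and for the granulocyte enzyme Mpo at 23.3.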

How the results depend on the processing

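The log2 ratio of Cx3cl1 kept its direction under all 15 alternatives, from 0.79 with median-ratio factors to 1.07. It was 0.97 with the replicate block in edgeR, and 0.82 to 1.07 when each library was left out. Since the groups did not overlap, leaving out a library could not reverse the direction. The likeness counts were less stable. The 54 alike genes became 28 with TMM factors, 12 with median-ratio factors (an alternative added after seeing the data), 14 with Spearman's rho and 182 with the replicate block, and 31 to 132 when each library was left out. Counts moved by over 1.5 times without KO replicate 4 (31), WT replicate 1 (132) and WT replicate 4 (94). The 11 opposite genes became 5 with a mean of at least 200, 24 with TMM factors, 2 with Spearman's rho, 95 with the replicate block and 5 to 25 when each library was left out. Those past 1.5 times were without KO replicates 2 (17), 3 (18) and 4 (5) and WT replicates 1 (25) and 4 (18). Of the 3 higher pathway genes 1 was called with the replicate block and 1 to 3 when each library was left out, with 1 without KO replicate 4. Of the 8 lower, 4 were called by edgeR, 2 with the replicate block and 1 to 4 when each library was left out. The cause was not tested.

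The replicate block rests on shared numbers alone: deviations of same-numbered libraries correlated at 0.19, -0.12, -0.32 and -0.38, and 2 of 8 libraries correlated best with their own number. The list holds selected genes, and 4 libraries a group limit every within-group r. Genes below 50 normalized counts, among them 6 of the listed chemokine ligands, were not compared with Cx3cl1 for likeness.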
